A study of Mus musculus with 36 samples.

Results

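The change in the transcriptome of the Lgr5+ stem cell (SC) progeny between 1 week and 4 weeks after a first skin wound was measured by comparing 3 libraries of 4w pw1 (4 weeks post first wound) with 3 libraries of 1w pw1, which are 6 of the 36 samples of the study. The members are all genes of the count table. Of 22587 genes listed, 18025 passed the filter on low counts and were tested. All mice carried Lgr5-EGFP-ires-CreERT2 and Rosa26-fl/STOP/fl-tdTomato, so that one topical dose of 4-hydroxytamoxifen on the tail labelled the Lgr5-expressing cells and everything that descended from them (Lgr5 GL, for genetically labelled). The mice of both time points were labelled before injury and received the same full-thickness punch wound of the tail at 7 to 9 weeks of age, the wound being the 0w time point. At collection the mice of 4w pw1 were thus older and further from labelling than those of 1w pw1. No unwounded Lgr5 GL mice of the later age were sampled. Time after the wound, age and time after labelling therefore cannot be told apart in any difference below. Each library came from 150 sorted tdTomato+ cells of a skin zone that held the wound bed and the hair follicles (HFs) at a distance from it, so cells that had entered the new epidermis and cells that had stayed in their HF were sampled together. The study also held unwounded Lgr5 GL mice (0w), 2w pw1, 8w pw1 and 1w pw2 (1 week after a second wound made at 8w), and the same 6 time points for the progeny of Lrig1+ SCs, each with 3 libraries.

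Lgr5 marks SCs of the lower HF, the bulge and the hair germ, which rest between hair cycles and feed the growing hair during anagen. A growing HF builds concentric layers, among them the hair shaft and the inner root sheath that moulds it, and each layer has its own set of keratins. After a wound, HF progeny can leave the follicle and join the basal layer of the epidermis, where basal keratinocytes carry Krt5 and Krt14, hold on to the basement membrane through integrins and laminin-332, and use glucose at a high rate.

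The libraries of 1w pw1 held between 2052347 and 4930580 counts and those of 4w pw1 between 1297798 and 2116933, so the later time point was the shallower one, and a gene with 3 counts lay between 0.608 and 1.46 CPM at 1w and between 1.42 and 2.31 CPM at 4w (CPM are counts scaled to a common library total, with TMM factors for the gene values and without them for these floors). Intervals and floors cover counting error only, since the reads carried no molecular identifiers. Gm12415, a non-coding RNA, took between 12 and 49.7% of the counts at 1w and between 28.5 and 52.1% at 4w. Mitochondrially encoded genes took 2.34 to 3.60% of the counts at 1w and 1.19 to 2.15% at 4w. Across genes, which are not independent replicates, Pearson's r between log2 CPM values ran from 0.790 to 0.835 between libraries of 1w and from 0.727 to 0.854 between libraries of 4w. Against the label, the 6 bulge markers summed to between 4618 and 11707 CPM at 1w and to between 3856 and 6407 CPM at 4w, and the 4 basal epidermis markers to between 17968 and 21549 CPM and between 6265 and 8893 CPM. Of 7 leukocyte markers, the 2 in the count table, Ptprc and Cd74, summed to at most 3.40 CPM in any of the 6 libraries. H2-Aa, Lyz2, Cd3e, Cd207 and Itgam were not listed in it, so no level is given for them. The 6 fibroblast markers summed to 125 to 152 CPM at 1w and 124 to 146 CPM at 4w. In a bulk library, fewer cells of a kind and less RNA per cell cannot be told apart.

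The 2 time points differed in 561 genes (3.11% of those tested), of which 351 (1.95%) were higher and 210 (1.17%) were lower at 4w than at 1w, by edgeR's quasi-likelihood test. A gene was called where its p, adjusted by Benjamini-Hochberg over all genes, was under 0.05 and its log2 fold change was larger than 1 in either direction. These shares over all tested genes are to be set beside the counts of called list members given below. The higher genes held 9 of 20 tested genes of the hair shaft and the inner root sheath, among them Krt28, which had the smallest p of the higher side. The lower genes held basal keratins, laminin-332, matrix and caveolar genes, enzymes and transporters of glycolysis, and ribosomal proteins. An unadjusted p under 0.05 was reached by 4121 genes. The median log2 fold change of all tested genes was 0.11 and moved to 0.23 with DESeq2's size factors, under which the share of calls that were higher at 4w was 78.0%, against 62.6% with TMM.

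The number of calls depended on the libraries and on the model. No called gene that was named by rank or list turned in direction under any alternative run. These runs reused the libraries on which the genes were called, so a turn was unlikely from the start and its absence is no support. All 18 Lgr5 GL libraries shared 1 estimate of the spread in the main test. With the 6 libraries alone, only 2 genes were called, and with 4 surrogate variables none was (1682 genes had an unadjusted p under 0.05). Without replicate c of 4w the count was 41, without replicate b 118 and without replicate a 859. It was 156 without replicate 1 and 304 without replicate 3 of 1w. Of the 561 genes, 34 were called in each of the 6 fits that left out 1 library, among them Krt28 and Tgfbi, and 39 were called in none of these 6 fits. After the 1w libraries were thinned to the mean depth of those of 4w, 396 genes were called and 359 of them were among the 561.

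**Figure D1:**
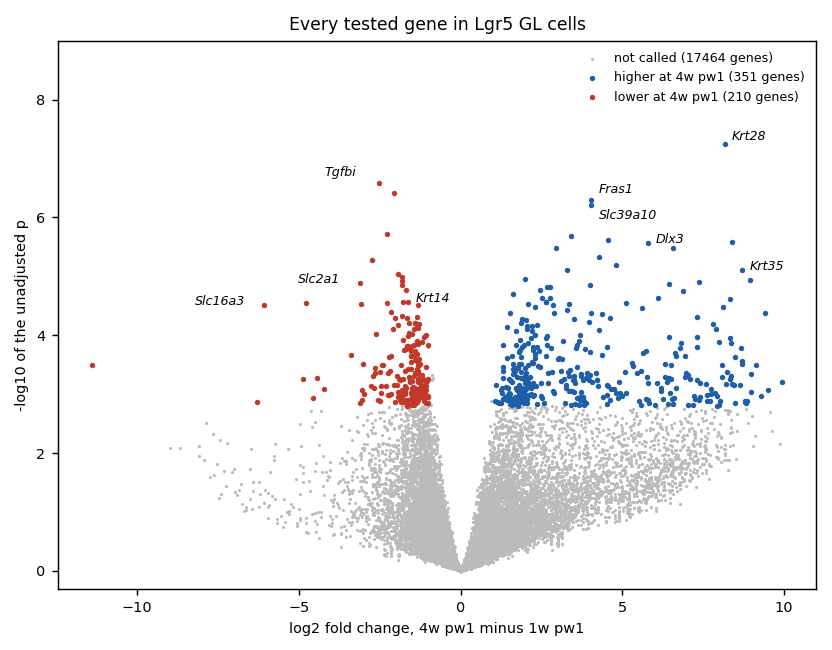
Log2 fold change of 4w pw1 against 1w pw1 (horizontal axis) and the negative log10 of the unadjusted p (vertical axis) for the 18025 genes tested in Lgr5 GL cells, with the 351 genes called higher at 4w in blue and the 210 called lower in red. Krt28 has the smallest p of the higher and Tgfbi of the lower genes, and the higher genes reach fold changes of a larger size than most of the lower ones.

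The higher genes were often scarce and long. Of the 351, 99 had at most 3 counts over the 3 libraries of 1w and 53 had none, and their median exonic length was 6837 bases, against 2313 for the lower and 3587 for all tested genes. Their median GC content was 47.5%, that of the lower genes 51.4% and that of all tested genes 49.2%. The part of length in these calls was not tested. With the trend on GC content removed, 527 genes were called, of which 467 were among the 561. In 320 of the 351 higher and 208 of the 210 lower genes the 3 libraries of one time point lay beyond all 3 of the other, against 12.1% of all tested genes with 4w above 1w and 12.1% with 4w below. The called genes were chosen on these same libraries, so these shares cannot be compared.

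Keratins of the inner root sheath, the hair shaft and the companion layer were among the genes called higher at 4w. Of the 20 members tested of a list of such genes, 9 were called higher and none lower, and 19 of the 20 had a positive log2 fold change, with a median of 3.41 for the list against 0.11 for all genes. With every member, the list summed to 2698, 2253 and 3167 CPM in the 3 libraries of 1w. The sums of 4w were 2423, 6629 and 3562 CPM and overlapped with these. Krt6a, the member with a negative change (-1.08), is also a wound keratin. Without Krt6a the list summed to 114, 314 and 245 CPM at 1w and to 1019, 5532 and 2551 CPM at 4w. At 0w this smaller sum was 1235, 734 and 547 CPM. Replicate a of 4w thus lay within the range of 0w, and every library of 1w lay below that range. The number of called members ran from 5 to 11 when each library was left out in turn, and was 1 with the 6 libraries alone.

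Krt28, a type I keratin of the inner root sheath, was found at 0.326, 0 and 0.181 CPM at 1w and at 42.8, 63.7 and 84.0 CPM at 4w. Every library of 4w was thus far above every library of 1w, where the gene was nearly silent. Over the 3 libraries it had 2 counts at 1w and 321 at 4w, a ratio of 339 with an exact 95% counting interval from 93.2 to 2814 (adjusted p = 0.00100). The gene was at 0.783 ± 0.699 CPM before injury (SD, n = 3) and at 14.5 ± 5.55 CPM at 2w, so that 4w was the highest of the 6 time points, and it was also higher at 4w than at 0w (log2 fold change 6.25, adjusted p = 0.0034). Krt25, its neighbour on chromosome 11 and another type I keratin of the inner root sheath, had 2.61, 0 and 0.181 CPM at 1w and 121, 665 and 146 CPM at 4w, with a log2 fold change of 8.35 ± 1.48 (SE, adjusted p = 0.0112). Replicate b of 4w was the highest for this gene and for Krt71, the type II keratin that pairs with these chains, which had 0.652, 5.09 and 7.41 CPM at 1w and 242, 2600 and 256 CPM at 4w (7.82 ± 1.51, adjusted p = 0.0152). Krt27 and Krt73, of the same layers, were called higher too, with log2 fold changes of 5.07 and 4.92.

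The hair shaft proper and the companion layer showed the same direction. Krt35, a keratin of the hair cortex and cuticle, stood at 0.326, 0.566 and 0.542 CPM at 1w and at 18.5, 320 and 303 CPM at 4w, a log2 fold change of 8.72 ± 1.41 (adjusted p = 0.00843). Replicate a of 4w lay well below the other two but still above all of 1w. Krt31, another shaft keratin, rose by 6.97 on the log2 scale (adjusted p = 0.0344), from 0.979, 1.13 and 0.181 CPM to 7.78, 207 and 47.1 CPM. Krt75, the keratin of the companion layer, had 1.30, 10.8 and 5.06 CPM at 1w and 53.5, 88.0 and 644 CPM at 4w (5.61 ± 1.02, adjusted p = 0.0117), and replicate a of 4w lay within the 0w range of 45.2 to 55.8 CPM. Gata3, a transcription factor needed for the inner root sheath and the only factor called in the list, had 32.9 to 59.4 CPM at 1w and 106 to 136 CPM at 4w (1.53 ± 0.28, adjusted p = 0.0129). Dlx3, a homeobox gene of the hair matrix and its daughters that is not in the list, rose from 0.326, 0.566 and 1.27 CPM to 22.4, 49.0 and 65.9 CPM (5.81 ± 0.86, adjusted p = 0.00491). The 11 members of the list that did not pass included the keratins Krt32 (0.66, adjusted p = 0.792), Krt81 (2.04, adjusted p = 0.302), Krt86 (1.35, adjusted p = 0.255) and Krt36 (6.10, adjusted p = 0.0849). They also included Tchh, trichohyalin of the inner root sheath (log2 fold change 4.30, adjusted p = 0.067), Msx2 (2.53, adjusted p = 0.0501) and Foxn1 (2.31, adjusted p = 0.0527). Krt71, Krt27, Krt31, Krt73, these 7 genes and Axin2, described below, were named after their values were seen.

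**Figure D2:**
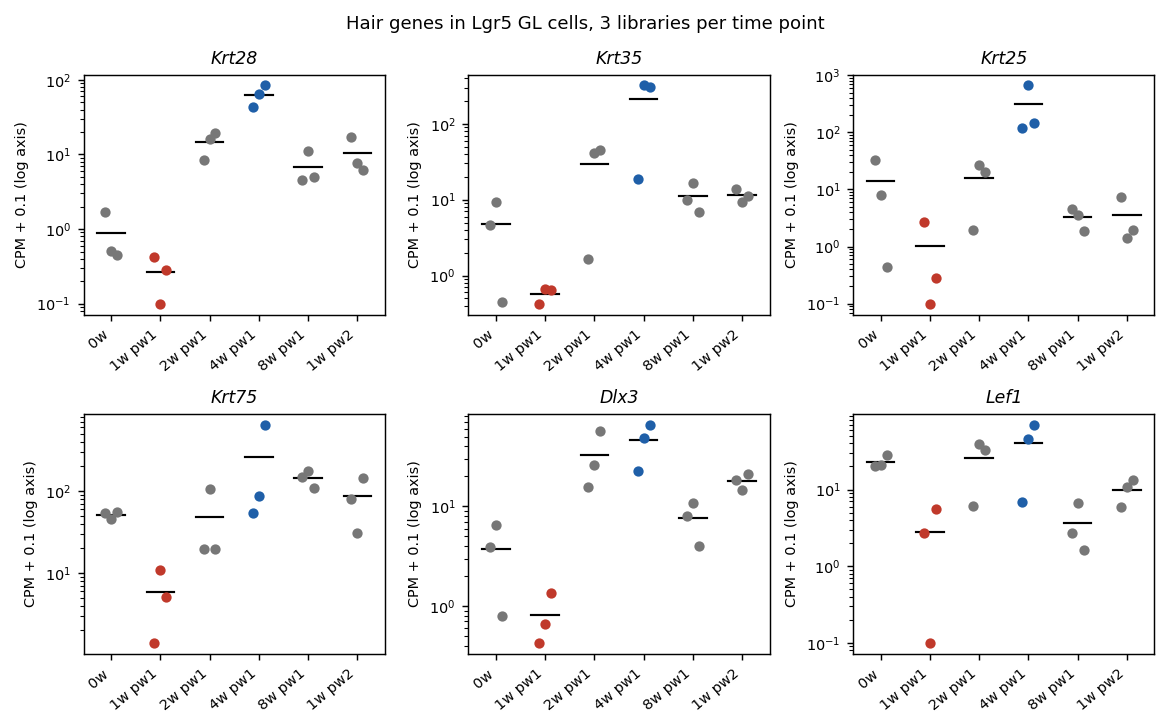
CPM + 0.1 on a log axis in each of the 3 Lgr5 GL libraries (points) of the 6 time points, with the mean as a line, for 4 keratins of the hair (Krt28, Krt35, Krt25, Krt75), Dlx3 and Lef1. The 3 libraries of 4w pw1 (blue) lie above the 3 of 1w pw1 (red) for each gene, though for Lef1 the lowest of 4w, at 6.81 CPM, is close to the highest of 1w, at 5.42 CPM, and the means of 8w pw1 and 1w pw2 lie below that of 4w pw1.

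The inner root sheath keratins lie in gene clusters on chromosomes 11 and 15, and the 150 bases before the annotated start of 5 of them are shown because they share a core promoter element. Sequences are those of RefSeq on GRCm38.p6, 5′ to 3′ on the strand of the gene, with TATAAA on either strand in capitals. The windows are chr11:99322952-99323101 (Krt25), chr11:99351119-99351268 (Krt27), chr11:99374904-99375053 (Krt28), chr15:101743098-101743247 (Krt71) and chr15:101802361-101802510 (Krt73), all on the minus strand.
Krt25: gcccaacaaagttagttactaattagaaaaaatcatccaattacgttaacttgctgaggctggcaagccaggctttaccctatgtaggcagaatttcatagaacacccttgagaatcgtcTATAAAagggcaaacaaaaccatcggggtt
Krt27: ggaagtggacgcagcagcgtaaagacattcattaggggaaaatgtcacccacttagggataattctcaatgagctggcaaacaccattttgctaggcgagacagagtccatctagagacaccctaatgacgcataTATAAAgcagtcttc
Krt28: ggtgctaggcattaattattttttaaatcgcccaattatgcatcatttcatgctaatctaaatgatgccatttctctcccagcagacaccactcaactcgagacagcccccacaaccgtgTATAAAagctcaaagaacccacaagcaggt
Krt71: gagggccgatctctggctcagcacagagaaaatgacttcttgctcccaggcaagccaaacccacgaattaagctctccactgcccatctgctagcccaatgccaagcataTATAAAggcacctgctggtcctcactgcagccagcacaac
Krt73: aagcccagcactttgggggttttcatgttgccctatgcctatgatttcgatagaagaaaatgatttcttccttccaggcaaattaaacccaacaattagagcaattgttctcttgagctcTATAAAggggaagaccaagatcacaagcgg
TATAAA occurred once in each of these windows, 15 bases before the start in Krt27, 40 in Krt71 and 30 in Krt25, Krt28 and Krt73. Over the 250 bases before the start, 7 of the 13 hair genes with a RefSeq promoter held it (53.8%), against 6.92% of the 11169 tested genes with one, 8.89% of the 225 higher and 7.09% of the 141 lower genes. CTTTGAA, the letters that LEF/TCF factors prefer, was found in 3 of the 13 hair genes and in 3.37% of all. The 3 were Krt31, which was called, and Krt32 and Tchh, which were not. It was found in 2.22% of the 225 higher and 2.13% of the 141 lower genes.

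Signals of the hair cycle were among the higher genes as well. Lef1, the DNA-binding partner of beta-catenin in the Wnt pathway and a marker of hair-forming cells, had 2.61, 0 and 5.42 CPM at 1w and 6.81, 45.3 and 69.9 CPM at 4w. Replicate a of 4w was close to the highest library of 1w and the other 2 were far above it (log2 fold change 3.80 ± 0.98, adjusted p = 0.0444). Wnt3, a Wnt ligand of the hair matrix, had no count in any library of 1w and 43 over the 3 libraries of 4w, at 0, 8.80 and 14.8 CPM, which makes it at least 30.3-fold higher against a floor of 3 counts over the group (adjusted p = 0.0468). Dkk3, a secreted protein of the Dickkopf family and common in the bulge, went the other way, from 144, 160 and 269 CPM to 20.4, 46.5 and 59.8 CPM (-2.16 ± 0.40, adjusted p = 0.0129), and at 4w it was also below its 0w level of 209 to 326 CPM (log2 fold change -2.67, adjusted p = 0.014). These were the 3 calls among 24 Wnt genes tested, whose median was 0.51, and Axin2, a common readout of Wnt signals, had 1.13 to 11 CPM at 1w and 6.81 to 29.6 CPM at 4w (adjusted p = 0.31). In the Notch pathway 2 of 13 genes were called, both higher. They were Lfng, which adds sugars to Notch receptors (1.98 ± 0.48, adjusted p = 0.0372), and the receptor Notch3 (1.54 ± 0.39, adjusted p = 0.0432). Tgfb2, a ligand that acts on the hair germ, rose from 0.566 to 3.59 CPM to 16.8 to 31.1 CPM (3.21 ± 0.76, adjusted p = 0.0365). The calls of Lef1, Wnt3 and Tgfb2 were lost without any 1 library of 1w and without replicate b or c of 4w. Those of Lfng and Notch3 were lost without replicate 1 of 1w and without replicate b or c of 4w. Lfng also lost its call without replicate 2 of 1w and Notch3 without replicate 3. Dkk3 kept its call whichever library was left out.

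A further group of higher genes encodes matrix and guidance molecules. Fras1, a protein under the epidermal basement membrane, was at 1.63, 4.53 and 1.45 CPM at 1w and at 26.3, 31.8 and 59.2 CPM at 4w, with no overlap (4.04 ± 0.53, adjusted p = 0.00221). The 0w libraries had a mean of 21.96 ± 2.47 CPM (SD, n = 3), so the low values were those of 1w. Col14a1, a collagen that binds to fibrils, followed the same course, with 30.9, 29.3 and 17.2 CPM at 0w, 0.904 to 1.70 CPM at 1w and 37.0, 18 and 26.9 CPM at 4w (4.56 ± 0.67, adjusted p = 0.00491). Npnt, a bulge basement membrane protein to which the hair-raising muscle anchors, went from 21.2 to 26.6 CPM at 1w to 39.0 to 75.8 CPM at 4w (1.26 ± 0.33, adjusted p = 0.0479). This call was lost when any 1 of the 6 libraries was left out. Together with Fras1, Npnt was one of 2 calls among 16 genes of the collagen IV and basement membrane list, whose median was 0.84. Of 25 semaphorin, ephrin and netrin genes, 3 were called, all higher. They were the receptors Epha4 (2.37 ± 0.50, adjusted p = 0.0221), Robo1 (3.34 ± 0.79, adjusted p = 0.0358) and Unc5b (1.72 ± 0.42, adjusted p = 0.0403), and the list had a median of 0.80.

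Slc39a10, a zinc importer, had 6.20, 6.79 and 23.7 CPM at 1w and 243, 130 and 259 CPM at 4w (4.05 ± 0.54, adjusted p = 0.00221). At 0w it was at 47.9 to 87.5 CPM, between the other 2 time points. Slc7a11, which brings in cystine for glutathione, rose from 31.6, 7.36 and 18.8 CPM to 329, 110 and 94.1 CPM (3.18 ± 0.65, adjusted p = 0.0209) and was 1 of 9 genes called higher at 4w than at 0w, where it had 4.98 to 12.9 CPM (log2 fold change 4.36, adjusted p = 0.0193). Gclc, the catalytic subunit of the first enzyme of glutathione synthesis, had 34.5 to 65.2 CPM at 1w and 124 to 249 CPM at 4w (1.81 ± 0.46, adjusted p = 0.0432). The call of Gclc was lost when any 1 of the 6 libraries was left out. In the same NRF2 antioxidant list of 20 genes, thioredoxin (Txn1) was lower at 4w, at 163 to 361 CPM against 640 to 771 CPM (-1.62 ± 0.33, adjusted p = 0.0189), and the other 17 genes were not called.

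Rif1, which sets the timing of DNA replication, had 4.57, 4.53 and 3.80 CPM at 1w and 25.3, 54.9 and 57.8 CPM at 4w (3.43 ± 0.50, adjusted p = 0.00491), and its 1w libraries were far below the 24.3 to 44.9 CPM of 0w. Tra2a, a splicing factor, rose from 22.1 to 27.4 CPM to 61.3 to 139 CPM (2.00 ± 0.33, adjusted p = 0.00946). Fan1, a nuclease of DNA crosslink repair, had 1 count at 1w and 108 at 4w, a ratio of 228 with an exact counting interval from 40.1 to 9103. Usp21, which is named from its list and removes ubiquitin from histone H2A, was the 1 call among 23 Polycomb and H2A ubiquitin genes, from 18.3, 19.2 and 19.0 CPM to 65.2, 98.1 and 63.9 CPM (2.01 ± 0.38, adjusted p = 0.0146). Nrep, a small protein found in healing tissue, was lowest at 1w, at 27.1 to 34.2 CPM, and reached 202 to 264 CPM at 4w (2.97 ± 0.45, adjusted p = 0.00501). BC005561 rose by 3.31 ± 0.53 on the log2 scale (adjusted p = 0.00843).

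On the lower side, genes of the basal layer were among the calls. Krt14 was at 16476, 12093 and 14649 CPM at 1w and at 5511, 4748 and 3794 CPM at 4w, so that the lowest library of 1w held more than the highest of 4w (-1.62 ± 0.29, adjusted p = 0.0112). The 4w range overlapped with that of 0w, 4589 to 5190 CPM. Without replicate c of 4w the log2 fold change was -1.49 and the call was lost (adjusted p = 0.0724). Krt5, its partner chain, fell from 4504 to 5841 CPM to 1951 to 3128 CPM (-1.11 ± 0.23, adjusted p = 0.0193), though its 0w level, 4100 to 5393 CPM, was near that of 1w. Krt15, the basal keratin richest in the bulge, had 4036, 7503 and 10190 CPM at 1w and 2685, 4505 and 2913 CPM at 4w, and here replicate b of 4w overlapped with replicate 1 of 1w (-1.10 ± 0.28, adjusted p = 0.0432). It was far higher at 0w, at 13508 to 18382 CPM (log2 fold change of 4w against 0w -2.27, adjusted p = 0.0034), and at 8w, with a mean of 19196 ± 1391 CPM (SD, n = 3). The 3 keratins were the called members of a list of 4, and Trp63 was the fourth. None of the 4 was called without replicate c of 4w. With DESeq2, and with DESeq2's size factors in edgeR, Krt14 was the 1 called member. Of the fits that left out 1 library, Krt15 was called only in that without replicate 1 of 1w.

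Lamb3, a chain of laminin-332, had 461, 225 and 403 CPM at 1w and 101, 150 and 155 CPM at 4w (-1.42 ± 0.30, adjusted p = 0.0228). It had its highest mean before injury, with 366 to 706 CPM, and it was lower at 4w than at 0w (log2 fold change -2.06, adjusted p = 0.014). Itga6, the integrin chain of hemidesmosomes, went from 166 to 304 CPM to 74.2 to 96.2 CPM (-1.29 ± 0.28, adjusted p = 0.0266). Of the 9 genes of the hemidesmosome and laminin-332 list 3 were called, all lower, and 8 of 9 had a negative log2 fold change. Without replicate 1 of 1w, or replicate b or c of 4w, 1 of the 9 was called. Itgb1, the shared chain of matrix receptors, was the 1 call among 14 integrins and ligands, from 235 to 574 CPM to 139 to 163 CPM (-1.27 ± 0.30, adjusted p = 0.0346).

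The gene with the smallest p of the lower side was Tgfbi, a secreted matrix protein that binds integrins and is induced by TGF-beta. It had 1101, 805 and 1015 CPM at 1w and 150, 215 and 141 CPM at 4w (-2.53 ± 0.32, adjusted p = 0.00221), and with the higher Tgfb2 it made the 2 calls among 21 BMP and TGF-beta genes. At 4w Tgfbi was below its 434 to 832 CPM of 0w too (log2 fold change -1.92, adjusted p = 0.0193). Cav2, a coat protein of caveolae, fell from 378 to 492 CPM to 53.1 to 114 CPM (-2.27 ± 0.33, adjusted p = 0.00491). Of 30 genes of the actin cytoskeleton, 4 were called, all lower, namely the tropomyosins Tpm3 and Tpm4, moesin (Msn) and cofilin (Cfl1), with log2 fold changes from -1.51 to -1.10, and none of these 4 was called without replicate 1 of 1w or without replicate b or c of 4w. Gjb5, a connexin of epidermal gap junctions, fell from 55.3 to 75 CPM to 3.89 to 24.7 CPM (-2.23 ± 0.52, adjusted p = 0.0344). Among junction genes Perp was lower (-1.01 ± 0.27, adjusted p = 0.0479) and periplakin (Ppl), of desmosomes and the cornified envelope, higher at 4w (1.90 ± 0.40, adjusted p = 0.0221). Of the 6 fits that left out 1 library, Perp was called only in that without replicate 1 of 1w. Ppl lost its call without replicate 3 of 1w and without replicate b or c of 4w.

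**Figure D3:**
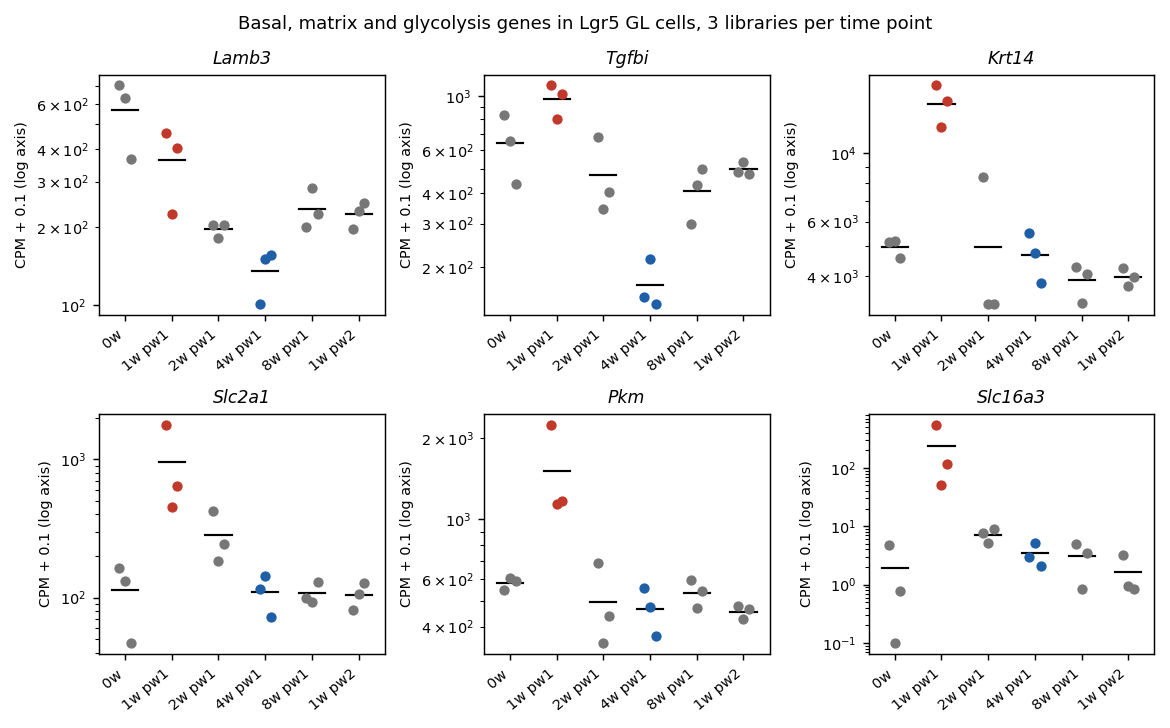
CPM + 0.1 on a log axis in each of the 3 Lgr5 GL libraries (points) of the 6 time points, with the mean as a line, for Lamb3, Tgfbi, Krt14, Slc2a1, Pkm and Slc16a3. The 3 libraries of 1w pw1 (red) lie above the 3 of 4w pw1 (blue) for each gene, and for Krt14, Slc2a1, Pkm and Slc16a3 the 4w libraries overlap with those of 0w.

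Glycolysis genes had lower levels at 4w than at 1w, and the summed level at 4w overlapped with that of unwounded mice. Of the 20 genes tested, 6 were called lower and none higher, 16 had a negative log2 fold change, and the median was -1.09. The summed level of the list was 12832, 5310 and 6176 CPM at 1w and 3986, 2624 and 2251 CPM at 4w, with replicate 1 of 1w far above the others, and 2803 to 3268 CPM at 0w. Slc2a1, the glucose transporter GLUT1, had 1775, 455 and 639 CPM at 1w and 116, 142 and 71.9 CPM at 4w (-3.12 ± 0.52, adjusted p = 0.00946). Even the lowest library of 1w was above all of 4w, and the 0w libraries ran from 46.9 to 163 CPM. Slc16a3, the lactate exporter MCT4, had 549, 50.4 and 117 CPM at 1w and 2.92, 5.03 and 2.02 CPM at 4w, and at 0w it was at 0 to 4.76 CPM (-6.09 ± 1.10, adjusted p = 0.0112). The call of Slc16a3 was lost without replicate 1 of 1w (-4.61, adjusted p = 0.0576) and without replicate c of 4w (-5.83, adjusted p = 0.0779), and those of Slc2a1 (-2.89, adjusted p = 0.0609) and Pkm (-1.56, adjusted p = 0.0609) without the latter. Pkm, which makes pyruvate, fell from 2238, 1137 and 1164 CPM to 557, 471 and 369 CPM (-1.70 ± 0.29, adjusted p = 0.00983), and Ldha, which turns it into lactate, from 2417, 1004 and 1089 CPM to 742, 409 and 419 CPM (-1.52 ± 0.33, adjusted p = 0.0254). Tpi1 and Gpi1, enzymes of the upper pathway, were the other calls, at -1.52 and -1.51.

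The other 14 glycolysis genes did not pass. Eno1 had a log2 fold change of -1.11 (adjusted p = 0.0798), Pfkl of -1.63 (adjusted p = 0.0704), Slc16a1 of -3.37 (adjusted p = 0.0859) and Pgk1 of -0.91 (adjusted p = 0.164), while Hk2, the hexokinase, was at 0.34 (adjusted p = 0.66). Without replicate 1 of 1w, 2 members were called, without replicate b of 4w 3, and without replicate c of 4w none. A list of 21 hypoxia response genes outside glycolysis had no call and a median of -1.31, with 18 of 21 below 0, and summed to 2623, 1064 and 1264 CPM at 1w and 949, 1136 and 909 CPM at 4w, where replicate 1 of 1w again stood apart and the other libraries overlapped.

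The letters ACGTG, the core of the element that hypoxia-inducible factors bind, were searched on both strands in the 250 bases before the start. They were found in 8 of 19 glycolysis genes (42.1%) and 9 of 17 hypoxia response genes (52.9%), against 21.2% of the 11169 tested genes with a promoter, 34 of the 141 lower genes (24.1%) and 45 of the 225 higher genes. Of the 8, Slc2a1, Slc16a3 and Ldha were called. Pgk1 (-0.91), Pgam1 (-1.07) and Slc16a1 (-3.37) were not called, nor were Hk2 (0.34) and Pfkm (0.39), whose changes were positive. No hypoxia response gene was called. The 150 bases before the start of 3 of the called genes are printed to show where the letters lie. Matches are in capitals, and overlapping ones are joined. The windows are chr4:119108595-119108744 (Slc2a1), chr11:120948917-120949066 (Slc16a3) and chr7:46845654-46845803 (Ldha), all on the plus strand of GRCm38.p6.
Slc2a1: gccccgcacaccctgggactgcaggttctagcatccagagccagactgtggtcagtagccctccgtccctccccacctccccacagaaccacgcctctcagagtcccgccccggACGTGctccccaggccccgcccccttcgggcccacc
Slc16a3: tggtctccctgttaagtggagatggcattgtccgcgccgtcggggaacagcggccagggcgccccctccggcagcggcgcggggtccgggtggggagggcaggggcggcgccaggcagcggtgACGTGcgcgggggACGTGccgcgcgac
Ldha: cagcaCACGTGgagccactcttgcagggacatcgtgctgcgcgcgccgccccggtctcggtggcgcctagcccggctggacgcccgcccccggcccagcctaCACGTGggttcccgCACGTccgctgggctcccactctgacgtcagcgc
Slc2a1 held 1 match that began 36 bases before the start, Slc16a3 held 2, at 27 and 14 bases, and Ldha held 5 that made up 3 stretches, at 145, 48 and 34 bases. Pkm, Tpi1 and Gpi1 had none in their 250 bases.

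Of 88 cytoplasmic ribosomal protein genes, 15 were called lower and none higher, 87 had a negative log2 fold change, and in 59 the 3 libraries of 4w lay below all 3 of 1w. Over all tested genes, 1.17% were called lower and 12.1% had the libraries of 4w below those of 1w. The median of the list was -1.10. Rplp0, of the ribosomal stalk, was at 828, 787 and 1027 CPM at 1w and at 356, 399 and 251 CPM at 4w (-1.39 ± 0.27, adjusted p = 0.0152), beside 379 to 489 CPM at 0w. Rps18 went from 498 to 588 CPM to 161 to 221 CPM (-1.59 ± 0.31, adjusted p = 0.0152). The summed share of these genes in the counts was 1.46 to 2.30% at 1w and 0.731 to 1.06% at 4w. The number of calls in the list was 45 without replicate a of 4w, 4 without replicate 1 and 5 without replicate 3 of 1w, 2 without replicate b and 0 without replicate c of 4w.

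Of the 77 nuclear genes of oxidative phosphorylation, 5 were called, all lower (Cox6a1, Ndufa1, Atp5g2, Uqcrc1 and Ndufa3), and 73 were below 0, with a median of -0.81. This list had 15 calls without replicate a of 4w, 1, 5 and 2 without replicates 1, 2 and 3 of 1w, and 0 without replicate b or c of 4w. All 13 mitochondrially encoded messenger RNAs were below 0, and mt-Cytb and mt-Nd1 were called (-1.33 and -1.23, adjusted p = 0.0368 and 0.0437). Without replicate a of 4w, 1 of the 13 was called, and without any other of the 6 libraries none was. mt-Nd1 had 4191, 4749 and 4157 CPM at 1w and 1921, 2403 and 1243 CPM at 4w, against 2402 to 4335 CPM at 0w. The glutathione peroxidase Gpx1, the metal-binding Mt1 and the redox protein Fam213a were among the 12 lower genes with the smallest p, with log2 fold changes of -1.80, -1.81 and -2.74, and each was at 4w near or below its range at 0w. Dnajb11, a chaperone of the endoplasmic reticulum, was the 1 call of 20 in its list (-1.25 ± 0.30, adjusted p = 0.0368). S100a10 and S100a11 were the 2 calls, both lower, of 15 S100 and alarmin genes (-1.47 and -1.20).

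Of the cell cycle genes, 1 passed the test. Pcna, the clamp of DNA polymerase, fell from 128, 217 and 120 CPM to 43.8, 44.0 and 47.7 CPM (-1.77 ± 0.36, adjusted p = 0.0204) and was the 1 call among 30 genes of G1/S and DNA replication. None of 30 genes of G2/M and mitosis was called, although 28 were below 0, 17 had the 3 libraries of 4w below all of 1w, and the median was -1.10. Over all tested genes, 12.1% had the libraries of 4w below those of 1w. Cdk1, the kinase that starts mitosis, had 201, 175 and 102 CPM at 1w and 17.5, 37.7 and 49.1 CPM at 4w (-2.18 ± 0.85, adjusted p = 0.14). The list summed to 1565 to 2312 CPM at 1w and to 414 to 1062 CPM at 4w. Its values at 0w were low and uneven, as the 10.2, 7.68 and 85.8 CPM of Cdk1 show.

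Of 25 bulge stem cell genes, Pdzrn3, a ubiquitin ligase (2.07 ± 0.41, adjusted p = 0.0164), and Npnt were called higher and none lower, and the median was 0.29. The call of Npnt, as said above, was lost in every fit that left out 1 library. The log2 fold changes of the 23 others ran from -1.80 (Postn, adjusted p = 0.0747) to 5.65 (Dio2, adjusted p = 0.203). Krt15 and Dkk3, described with other groups, are not in this list. Lgr5 itself had 31.3, 168 and 191 CPM at 1w and 197, 307 and 289 CPM at 4w, so that each library of 4w was above each of 1w, but the log2 fold change of 1.03 ± 0.51 did not pass (adjusted p = 0.241). At 0w it was at 321 to 499 CPM. Sox9, a regulator of HF SCs, had 432 to 946 CPM at 1w and 812 to 1255 CPM at 4w (0.46 ± 0.30, adjusted p = 0.359), and Cd34, a bulge surface protein, 11.1 to 56.4 CPM and 23.5 to 37.9 CPM (-0.37 ± 0.61, adjusted p = 0.749). For Cd34, both time points were below the 94.1 to 242 CPM of 0w.

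**Figure D4:**
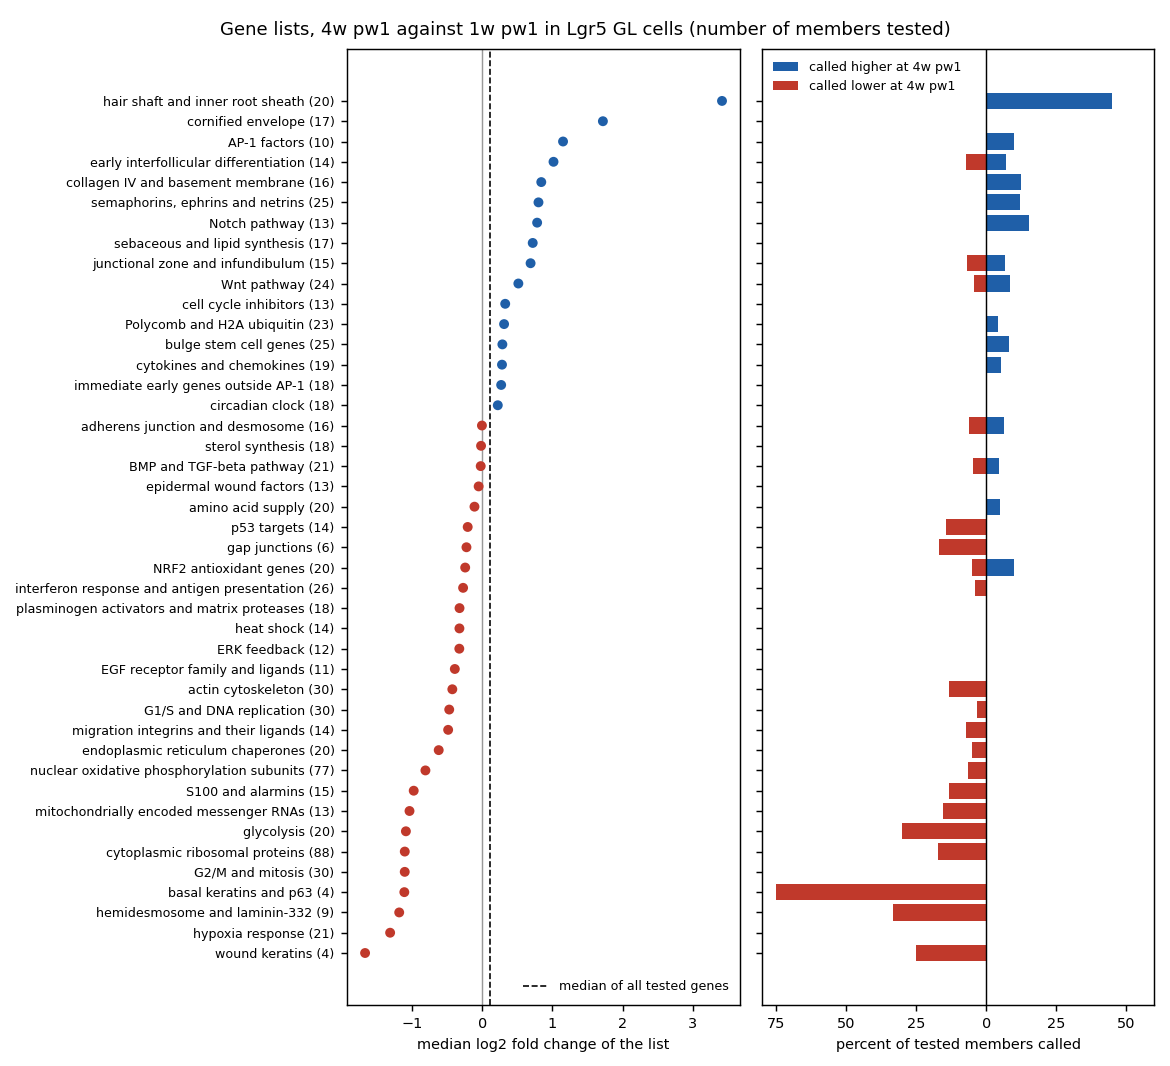
Left, the median log2 fold change of 4w pw1 against 1w pw1 for each of 43 gene lists (points, with the number of members tested in brackets), with the median of all tested genes as a dashed line; right, the percent of tested members called higher (blue, to the right) or lower (red, to the left). The hair shaft and inner root sheath list has the highest median (3.41) and 45% of its members called higher, and the basal keratins the largest share called lower, 3 of 4.

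Wound-response genes gave few calls. Of the 4 wound keratins, whose median was -1.67, Krt6b fell from 965, 593 and 563 CPM to 89.5, 179 and 70.6 CPM (-2.64 ± 0.61, adjusted p = 0.0344), and at 0w it was at 109 to 132 CPM. The call of Krt6b was lost without replicate 1 of 1w (adjusted p = 0.0874) and without replicate a (0.0584), b (0.0549) or c (0.137) of 4w. Krt6a had a log2 fold change of -1.08 (adjusted p = 0.129), Krt16 of -2.25 (adjusted p = 0.206) and Krt17, at 1708 to 6960 CPM at 1w and 3767 to 6387 CPM at 4w, of 0.16 (adjusted p = 0.845). Among 10 AP-1 genes, which the wound response switches on in skin, Mafk was called, and it was higher at 4w (1.81 ± 0.41, adjusted p = 0.0301). The call of Mafk was lost without replicate 1 or 2 of 1w and without replicate b or c of 4w. The AP-1 list had a median of 1.15, with 8 genes above 0 and 2 below, so its values were mostly higher at 4w. No gene was called among 18 other immediate early genes, 13 epidermal wound factors such as Stat3 and Hif1a, 18 plasminogen activators and matrix proteases, 11 genes of the EGF receptor family or 12 of ERK feedback. The cytokine list gave Tnfaip3, a brake on NF-kB (3.62 ± 0.82, adjusted p = 0.0317), 1 of 19, and the interferon list gave Ifitm3, lower at 4w (-1.95 ± 0.46, adjusted p = 0.0358), 1 of 26. Tnfaip3 lost its call without replicate 1 or 3 of 1w and without replicate b or c of 4w. Of the 6 fits that left out 1 library, Ifitm3 was called only in that without replicate a of 4w.

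Genes of the upper HF and of differentiation split. Ly6a, found in the infundibulum and in wounded epidermis, had 833, 205 and 316 CPM at 1w and 0, 26.8 and 27.6 CPM at 4w (-4.57 ± 1.18, adjusted p = 0.0448), and Nebl, an actin-binding protein, was higher at 4w (3.24 ± 0.86, adjusted p = 0.0479). They were the 2 calls among 15 genes of the junctional zone and infundibulum. Of the 6 fits that left out 1 library, Ly6a was called only in that without replicate 2 of 1w. Nebl lost its call without replicate 1 or 2 of 1w and without replicate b or c of 4w. Dmkn, a secreted epidermal protein, fell from 1045 to 1815 CPM to 329 to 644 CPM (-1.54 ± 0.33, adjusted p = 0.0254), and no cornified envelope gene of 17 was called, with a median of 1.72 and summed levels of 96.2 to 655 CPM at 1w and 397 to 1649 CPM at 4w. Fabp5, a fatty acid carrier of wounded epidermis, had 3127, 530 and 1269 CPM at 1w and 319, 264 and 206 CPM at 4w (-2.64 ± 0.76, adjusted p = 0.0633). It missed the threshold although the libraries did not overlap. No gene was called among 17 sebaceous and lipid genes, 18 of sterol synthesis, 14 of heat shock, 13 cell cycle inhibitors or 18 of the circadian clock.

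The 2w mean was between the means of 1w and 4w for 190 of the 210 lower genes (90.5%) and for 233 of the 351 higher ones (66.4%), and in 115 higher genes it was at or above both. The share over all tested genes was 42.8%, but the called genes were chosen for levels that lie far apart at 1w and 4w, so the shares cannot be compared. Slc2a1, for example, was at 184 to 422 CPM at 2w. Compared with 0w in the same fit, and sharing its libraries with the contrast above, 1w gave 232 calls (1.29%; 77 higher and 155 lower) and 4w gave 28 (0.155%; 9 higher, 0.0499%, and 19 lower, 0.105%), with 1936 genes at an unadjusted p under 0.05 for the latter.

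After the second wound Lgr5 GL cells were analysed at 1w pw2 alone, so no course of healing is given for it. Its libraries were set against 8w pw1, which preceded it. No gene was called between 1w pw2 and 8w pw1 (0% of 18025; 691 at an unadjusted p under 0.05). These are other libraries than the 6 above. The log2 fold change of 8w pw1 against 1w pw2 was positive for 122 of the 351 higher genes (34.8%) and for 113 of the 210 lower genes (53.8%), against 51.3% of all genes. Krt14 was at 3983 ± 253 CPM at 1w pw2 (SD, n = 3), beside 14406 ± 2202 CPM at 1w pw1, and Slc2a1 at 105 ± 22.6 beside 956 ± 715 CPM. In a test of 4w pw1 minus 1w pw1 against 8w pw1 minus 1w pw2, 84 genes passed (0.466%; 59 with the first of these the more positive and 25 the more negative; 2841 at an unadjusted p under 0.05), and 53 of the 351 higher and 21 of the 210 lower genes were among them. These genes were chosen with the 6 libraries that this test uses again, so their number among the 84 is no independent result. Krt28 had a log2 fold change of 8.17 for 4w pw1 against 1w pw1 and of -0.61 for 8w pw1 against 1w pw2, a difference of 8.77 ± 1.10 (adjusted p = 0.00479). The same 2 values were 4.04 and -1.08 for Fras1 (5.13 ± 0.69, adjusted p = 0.0049) and 2.97 and -1.56 for Nrep (4.53 ± 0.61, adjusted p = 0.0049).

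In the progeny of Lrig1+ SCs, no gene of 14306 was called between 1w pw1 and 4w pw1 (0%; 1211 at an unadjusted p under 0.05). The absence of calls there does not by itself separate the populations, so the difference between the 2 changes was tested over 13980 genes measured in both. Gm12415, with 12 to 52.1% of the counts in the 6 Lgr5 GL libraries, took at most 0.000212% in those of Lrig1 GL cells, and its part in this comparison was not tested. It passed for 532 genes (3.81%; 3109 at an unadjusted p under 0.05), 269 (1.92%) with the more positive change in Lgr5 GL cells and 263 (1.88%) with the more negative. The count fell to 2 when only the 12 libraries of these time points were fitted, and ran from 57 without replicate c of 4w in Lgr5 GL to 854 without its replicate a. Of the called genes measured in both, 120 of the 319 higher and 101 of the 210 lower passed, each with the change in Lgr5 GL cells beyond that in Lrig1 GL cells in the direction of the call. That direction and that number are set in part by the choice of genes on the same Lgr5 GL libraries. Among the 319, Lrig1 GL cells had a positive change for 103 (32.3%), and among the 210 for 130 (61.9%), against 50.4% of all genes.

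Rif1 had the smallest p of this test. It rose from 4.30 ± 0.43 to 46.0 ± 18 CPM in Lgr5 GL cells and stood at 110 ± 28.9 and 40.7 ± 8.10 CPM at the same time points in Lrig1 GL cells (SD, n = 3), a difference of 4.83 ± 0.59 on the log2 scale (adjusted p = 4.66e-05). The RNA-binding protein Tia1 (difference 3.50), the membrane scramblase Ano6 (2.76) and the cohesin loader Mau2 (3.96) had the more positive change in Lgr5 GL cells, and Bcap31, a protein of the endoplasmic reticulum membrane, had the more negative change there (-2.23; adjusted p from 0.000681 to 0.00146 for the 4). Krt15 fell in Lgr5 GL cells and had 597 ± 525 and 2259 ± 1079 CPM in Lrig1 GL cells at 1w and 4w (difference -3.04 ± 0.68, adjusted p = 0.0168). The difference passed for Ly6a (-4.50), Krt14 (-1.37), S100a11 (-1.73) and Tgfbi (-1.72), with adjusted p from 0.0190 to 0.0465. It did not pass for Krt6b and Slc2a1. Krt6b had a log2 fold change of -3.41 in Lrig1 GL cells beside -2.64 in Lgr5 GL cells (difference 0.74 ± 0.88, adjusted p = 0.657) and Slc2a1 of -1.58 beside -3.12 (difference -1.56 ± 0.62, adjusted p = 0.139).

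**Figure D5:**
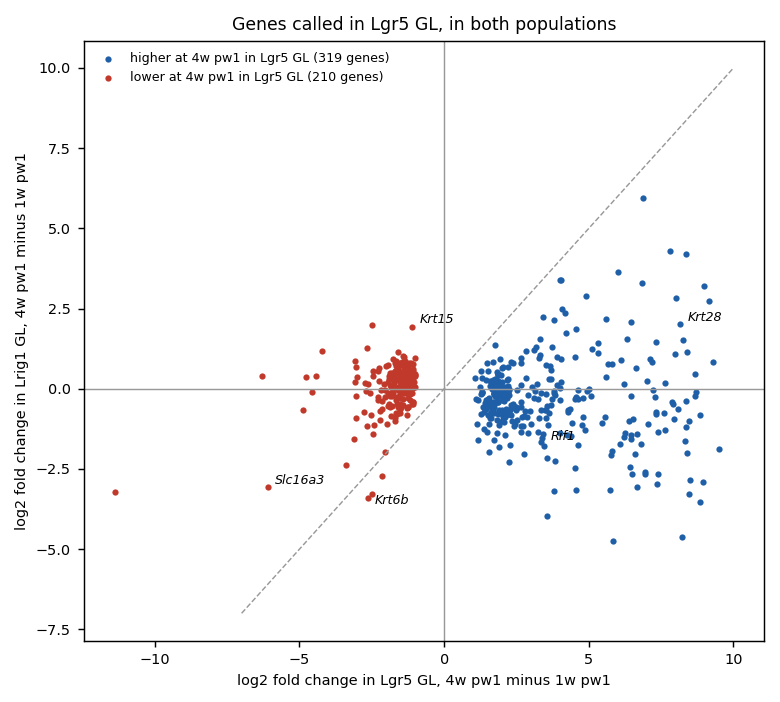
Log2 fold change of 4w pw1 against 1w pw1 in Lgr5 GL cells (horizontal axis) and in Lrig1 GL cells (vertical axis) for the genes called in Lgr5 GL cells and measured in both, 319 higher (blue) and 210 lower (red). The dashed line marks equal change. Of the 319 higher genes 103 lie above 0 on the vertical axis, Rif1 lies below 0, and Krt6b lies close to the line of equal change.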

How the data were processed

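The 150 cells per library were sorted by the authors and sequenced with a Smart-seq2 protocol. The authors deposited gene counts, made per the labels with Trim Galore, HISAT2 and featureCounts on GRCm38, in one table per population. For 21 libraries, the 4w ones included, column names gave the group but not the numbered replicate of the labels, so they are named a, b and c. Libraries came from separate mice.
edgeR 4.0.16 (R 4.3.3) fitted all 18 Lgr5 GL libraries with TMM factors, genes kept by filterByExpr (minimum count 10) and a quasi-likelihood F-test. P-values were adjusted by Benjamini-Hochberg over all genes tested, and errors of fold changes are standard errors. The change was compared with that of Lrig1 GL cells over all 36 libraries, and with the second wound, as interaction contrasts. The smallest exact permutation p for 3 against 3 is 0.1. Gene names were matched by symbol to GENCODE M21 for length and GC content. Genes named are the 12 higher and 12 lower with the smallest p, at least 10 mean counts and no overlap, up to 5 called genes per list (or 2 with the highest level where none was called), all wound keratins, bulge and glycolysis genes, up to 5 genes per test of a difference, and those said to be named after their values were seen. The members and lists were chosen with earlier results of these data known. Some genes that the rule names are not reported here. Scripts were tested on simulated data.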

Additional observations from a re-analysis of the deposited data

Results flagged for a closer look

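Of the genes named by rank or list, those below differed in the test of the difference itself between populations or between wounds (edgeR's quasi-likelihood test, adjusted p under 0.05). The value beside each gene is the difference of the log2 changes, and the causes of these differences were not tested.

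Between populations, the change from 1w to 4w in Lgr5 GL cells minus that in Lrig1 GL cells was positive for Fan1 (9.998), Krt28 (6.05), Rif1 (4.83), Nebl (4.59), Mau2 (3.96), Nrep (3.64), Tia1 (3.50), Ano6 (2.76), Tra2a (2.19). It was negative for Krt14 (-1.37), Tgfbi (-1.72), S100a11 (-1.73), Mt1 (-1.73), Txn1 (-1.89), Erp44 (-1.92), Ndufa3 (-1.98), Cav2 (-2.03), Dmkn (-2.07), Rps18 (-2.08), Avpi1 (-2.16), Ndufa1 (-2.17), Gpx1 (-2.19), Rplp0 (-2.22), Bcap31 (-2.23), Rps7 (-2.26), Rpl37a (-2.43), Pcna (-2.74), Fam213a (-2.93), Krt15 (-3.04), Ly6a (-4.50).

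Between wounds in Lgr5 GL cells, the log2 fold change of 4w pw1 against 1w pw1 minus that of 8w pw1 against 1w pw2 was positive for Krt28 (8.77), Krt35 (8.76), Krt25 (8.63), Fan1 (7.17), Dlx3 (7.06), Robo1 (5.93), Col14a1 (5.67), Fras1 (5.13), Slc39a10 (4.61), Nrep (4.53), BC005561 (4.30), Rif1 (3.88), Tra2a (2.47), Npnt (2.43). It was negative for Bcap31 (-1.70), Phlda3 (-1.77), Pkm (-1.93), Gpx1 (-1.97), Mt1 (-2.09), Txn1 (-2.24), Tgfbi (-2.24), Avpi1 (-2.38), Cav2 (-2.77), Slc16a3 (-6.83). Since 8w pw1 preceded the second wound, its fold change is not a course of healing.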

How the results depend on the processing

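No paired analysis was possible because the 4w columns carry numbers that are not the replicate numbers of the labels, and the libraries of the time points came from different mice. The values below set the 561 genes (351 higher and 210 lower) beside other settings, and the cause of each change was not tested. Calls numbered 2 (2 and 0) with the 6 libraries alone (1973 genes at an unadjusted p under 0.05), 1823 (1218 and 605) with the likelihood ratio test, 1905 (1406 and 499) with DESeq2, 361 (224 and 137) with no filter on low counts, 33 (26 and 7) when tested against a log2 fold change of 1, 36 (21 and 15) with 2 surrogate variables, and 0 (0 and 0) with the estimated 4, where 1682 genes had an unadjusted p under 0.05. The lower genes numbered 447 with limma-voom, where 46.1% of calls were higher, 117 with DESeq2's size factors, and 122 after thinning of the 1w libraries, an alternative chosen after seeing the data. Leaving out 1 library gave between 41 and 859 calls, 32 to 510 higher and 9 to 349 lower. The test against Lrig1 GL cells gave 532 genes, 1210 with the likelihood ratio test, 2 with its 12 libraries alone, and 57 to 854 without 1 library. With DESeq2's size factors 69.3% of these differences were positive, against 50.6%. In that test the count was 284 and 282 without Lgr5 GL replicates 1 and 3 of 1w, 207 without replicate b of 4w, 327 and 116 without Lrig1 GL replicates 1 and 2 of 1w, and 255 and 174 without replicates a and b of 4w. The test against the second wound gave 84 genes and 777 with the likelihood ratio test. With 1297798 to 2116933 counts at 4w, levels under about 3 counts per library could not be told from 0.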
